A study of Drosophila melanogaster with 8 samples.

Results

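Fatty acid beta-oxidation was examined through 7 genes that were picked by name: whd, CPT2, Mcad, CG7457, Echs1, Mtpalpha and yip2, out of 17445 gene identifiers in the count files. They were chosen with earlier results of these data known, so the number of them that passed a test is not an independent outcome. CG7457 is not known as an enzyme of the pathway and was taken because it lies opposite Mcad on the other DNA strand. All 7 had at least 1 read, and 4 of them (whd, Mcad, CG7457 and yip2) had enough reads to be tested across the whole table. Of these 4, only yip2, the gene for a predicted 3-ketoacyl-CoA thiolase, passed the test, which 3.17% of all 2589 features tested passed, 1.62% in the same direction. It was 2.05-fold lower in Ldh mutant larvae than in control larvae, on 10 to 13 reads in each mutant library and 19 to 24 reads in each control library. The features of whd, Mcad and CG7457 did not pass, and CPT2, Echs1 and Mtpalpha had at most 4 reads in any library.

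Beta-oxidation takes fatty acids apart in the mitochondrion, releasing acetyl-CoA and reduced electron carriers at each round. Long-chain fatty acids are first bound to carnitine by carnitine palmitoyltransferase I at the outer membrane, carried across, and returned to coenzyme A by carnitine palmitoyltransferase II. Each round then consists of a dehydrogenation, a hydration, a second dehydrogenation and a cleavage by a thiolase. In the Drosophila larva, fat is stored mainly in the fat body, while fast larval growth leans on glycolysis. Lactate dehydrogenase (Ldh) turns pyruvate into lactate and back, and promotes glycolytic flux together with the enzyme Gpdh1. The paper states that larvae lacking only one of these enzymes show little change in growth.

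RNA came from whole larvae in the middle of the second instar, kept for 60 hours at 25 °C on yeasted molasses agar, with 25 larvae pooled in a sample. The 4 Ldh mutant samples (w[1118]; Ldh[16/17], replicates 1, 2, 3 and 6) carried a pair of mutant Ldh alleles. The 4 control samples (w[1118]; Ldh[precise], replicates 1, 2, 5 and 6) carried a precise excision at the same gene, so that both groups shared the w[1118] background. The labels do not state separate cultures. The paper speaks of biological replicates, but for sample and larva numbers that differ from the labels, so it may not refer to these libraries, and p-values measure only how these samples vary among themselves, which may be partly technical.

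Counting gave 371700 to 560865 reads assigned to a gene per library, and 97.8% to 98.1% of the uniquely aligned reads fell in no gene. A gene identifier with its count is called a feature here, because it was not stated whether or how the counting used strand. The strand that the reads of a feature came from is thus not known. Alignments set aside as ambiguous between genes were only 0.0255% to 0.035% of the total of a library, and the strand setting was not tested. Features with an exon lying opposite an exon of another gene made up 26.1% of those placed in the annotation and held 94.2% of the assigned reads. Levels are given in CPM, read counts scaled by library size (reads in tested features times a TMM factor). Ldh itself had 0 reads in each of the 4 mutant libraries and 4, 3, 5 and 1 reads in the control libraries (replicates 1, 2, 5 and 6). Counting the mutant group as 3 reads in all, a floor set by choice, Ldh was 4.49-fold lower there. The two-sided exact permutation p was 0.0286, which 4 against 4 libraries cannot go below. The exact 95% interval of the Ldh read ratio, mutant over control and scaled by library size, had an upper end of 0.317. A difference somewhat smaller than 4.49-fold thus lay inside that interval. The expression filter was passed by 2589 features, of which 82 were called at an adjusted p under 0.05 in edgeR's quasi-likelihood test, 42 lower in mutants and 40 higher (1.54%). Mutant replicates 1 and 3 were farthest from the other mutant libraries, with a chi-square per degree of freedom between 6.25 and 12.1 for replicate 1 and between 7.48 and 12.1 for replicate 3, against 3.03 between replicates 2 and 6. The number called was 79 without replicate 1 and 164 without replicate 3. Among markers of tissues in a whole larva, 4 body wall muscle genes had reads in every library (summed level 1361 to 1817 CPM in mutants and 1467 to 1860 CPM in controls), while 5 fat body genes summed to 18.7 to 38.9 CPM in mutants and 24.4 to 43.9 CPM in controls, with Fbp1 at 0. The 5 midgut genes summed to 4.57 to 30.3 CPM in mutants and 5.19 to 19.0 CPM in controls, none with reads in every library, and 4 neuronal genes to 1920 to 2115 CPM in mutants and 2057 to 2537 CPM in controls. Reads in every library were held by only 2 of the 4 neuronal genes and 1 of the 5 fat body genes.

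The members differed widely in level. CG7457 held 98.0% of the 37651 reads of the 7 features, and the other 6 features shared 740 reads over 8 libraries. Per kilobase of exon, the order of the mean levels in mutants was CG7457 (1516 CPM per kb), whd (41.1), Mcad (23.1), yip2 (18.3), Echs1 (5.12), Mtpalpha (1.56) and CPT2 (0.486). In controls yip2 stood above Mcad, with CG7457 at 1836 CPM per kb, whd at 38.8, yip2 at 37.9, Mcad at 26.6, Echs1 at 4.70, Mtpalpha at 1.10 and CPT2 at 0.19. In both groups the libraries of CG7457 lay wholly above those of whd. The ranges of whd and Mcad overlapped in mutants, as did those of Mcad and yip2, and in controls the range of yip2 overlapped those of its neighbours in the order, whd and Mcad. Echs1, Mtpalpha and CPT2 overlapped one another in that order in both groups and lay below the rest.

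**Figure D1:**
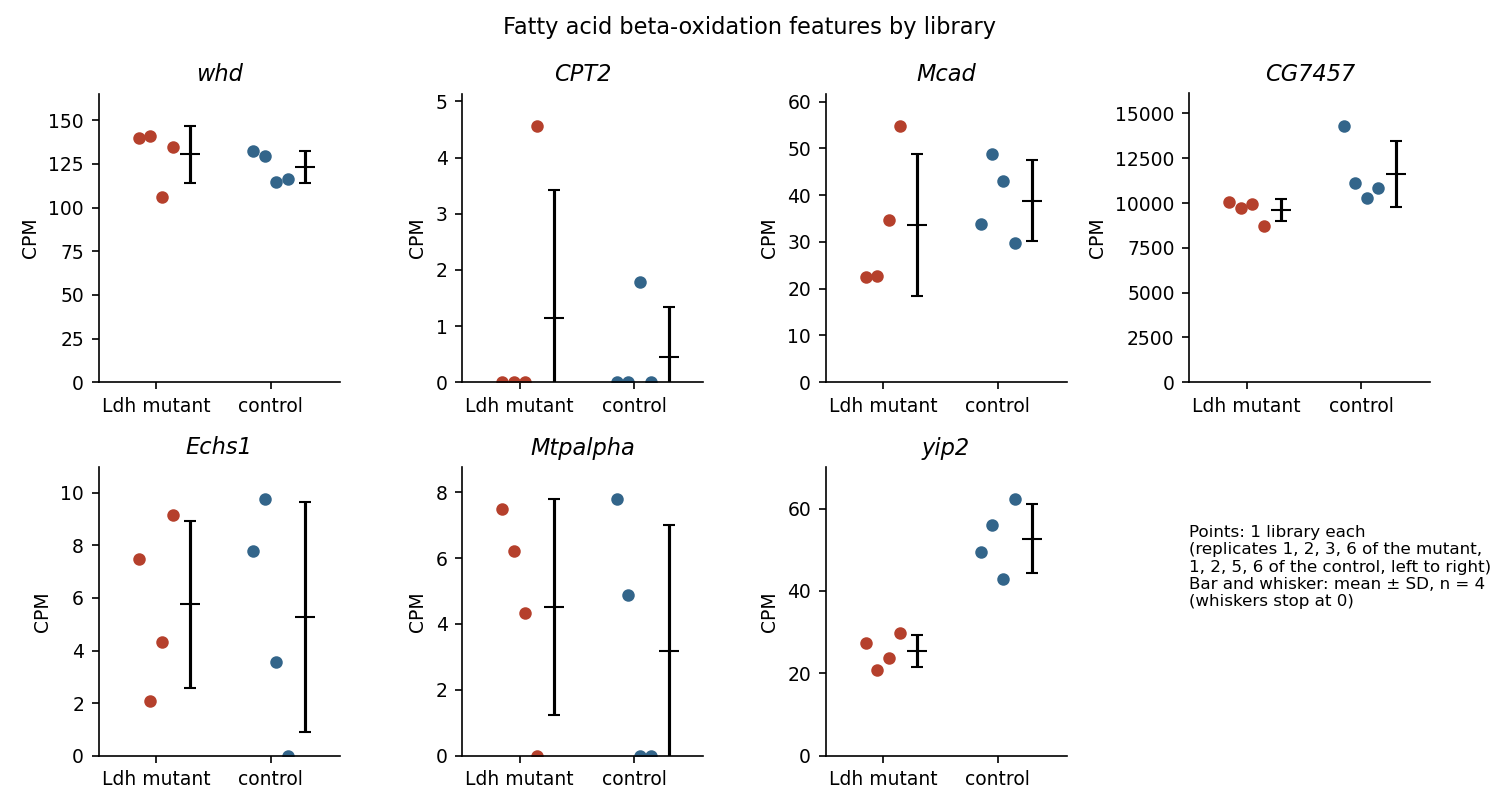
Level of each of the 7 features in CPM on a linear axis from 0, with 4 Ldh mutant libraries left and 4 control libraries right in each panel, and the mean ± SD of each group beside its points. The mutant libraries of yip2 (20.7 to 29.7 CPM) sit below all its control libraries (43.0 to 62.3 CPM), CG7457 also separates the groups, and the points of the other 5 features overlap.

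whd encodes carnitine palmitoyltransferase I, the step that commits long-chain fatty acids to the mitochondrion. Its feature (FBgn0261862, chromosome arm 2R, 10469473 to 10478567, minus strand, BDGP6) had 56, 68, 49 and 59 reads in the mutant libraries and 51, 53, 64 and 43 reads in the control libraries. The 2 ranges lay almost on top of each other. Means were 130.4 ± 16.5 CPM in mutants and 123.2 ± 8.96 CPM in controls (SD, 4 libraries a group). The log2 fold change was 0.08 (SE 0.15, 95% interval -0.23 to 0.40) with an adjusted p of 0.872 in edgeR's quasi-likelihood test. A difference as large as that of yip2 lies outside this interval.

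The exons of whd overlap other genes on the plus strand over 353 of 3175 bases (11.1%). At one end lies asRNA:CR45134, an antisense RNA, over 182 bases. It had 14, 17, 25 and 8 reads in mutants and 15, 16, 16 and 10 reads in controls, with a log2 fold change of 0.11 (SE 0.31, adjusted p = 0.932, edgeR). At the other end CG11777 overlaps whd over 171 bases, with 139, 142, 182 and 101 reads in mutants and 132, 120, 161 and 115 reads in controls and a log2 fold change of 0.04 (SE 0.15, adjusted p = 0.953, edgeR). None of the 3 features separated the groups. whd took 27.8 ± 6.69% of the reads of the 3 features in mutants and 26.5 ± 1.12% in controls (SD, 4 libraries a group; exact permutation test, two-sided p = 0.657). When the 3 were summed into 1 feature and the table was refitted, the log2 fold change was 0.05 (SE 0.13, adjusted p = 0.917, edgeR).

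CPT2 encodes carnitine palmitoyltransferase II, which works after whd at the inner membrane. Its feature (FBgn0035383, 3L, 2981022 to 2983551, plus strand) has no exon base opposite another gene. It had 2 reads in mutant replicate 6 and 1 read in control replicate 5, and 0 in the other libraries. The ratio of reads, mutant over control and scaled by library size, was 1.93 with an exact 95% interval of 0.101 to 114.0, so a difference was not detectable at this depth (exact permutation test on log2(CPM + 1), two-sided p = 1.0). Intervals on reads cover counting error only.

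Mcad encodes medium-chain acyl-CoA dehydrogenase, which catalyses the first dehydrogenation for fatty acids of medium length. Its feature (FBgn0035811, 3L, 7719350 to 7721472, plus strand) had 9, 11, 16 and 24 reads in mutants and 13, 20, 24 and 11 reads in controls. The mutant libraries spanned the whole range, with replicates 1 and 2 low and replicate 6 highest of all 8 in CPM. Means were 33.7 ± 15.2 CPM in mutants and 38.8 ± 8.64 CPM in controls (SD, 4 libraries a group). The log2 fold change was -0.22 (SE 0.31, 95% interval -0.88 to 0.44, adjusted p = 0.831, edgeR). Mutant replicate 6 weighed heavily on this value, which was -0.55 without it and did not pass the test there either (adjusted p = 0.472, edgeR).

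Of the 1461 exon bases of Mcad, 1353 (92.6%) lie opposite exons of CG7457, an uncharacterised gene on the minus strand (FBgn0035812, 3L, 7719899 to 7726473). Those same bases are 21.4% of the 6335 exon bases of CG7457, which runs on well past the end of Mcad. CG7457 was among the most abundant features of the whole table, ranking 11 by reads. It had 4030, 4696, 4587 and 3803 reads in mutants and 5514, 4547, 5728 and 4006 reads in controls. Scaled for library size, it gave 10052, 9744, 9920 and 8692 CPM in mutants and 14323, 11090, 10265 and 10846 CPM in controls. The groups did not overlap on this scale, although mutant replicate 1 and control replicate 5 were close, and control replicate 1 was high beyond the rest.

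**Figure D2:**
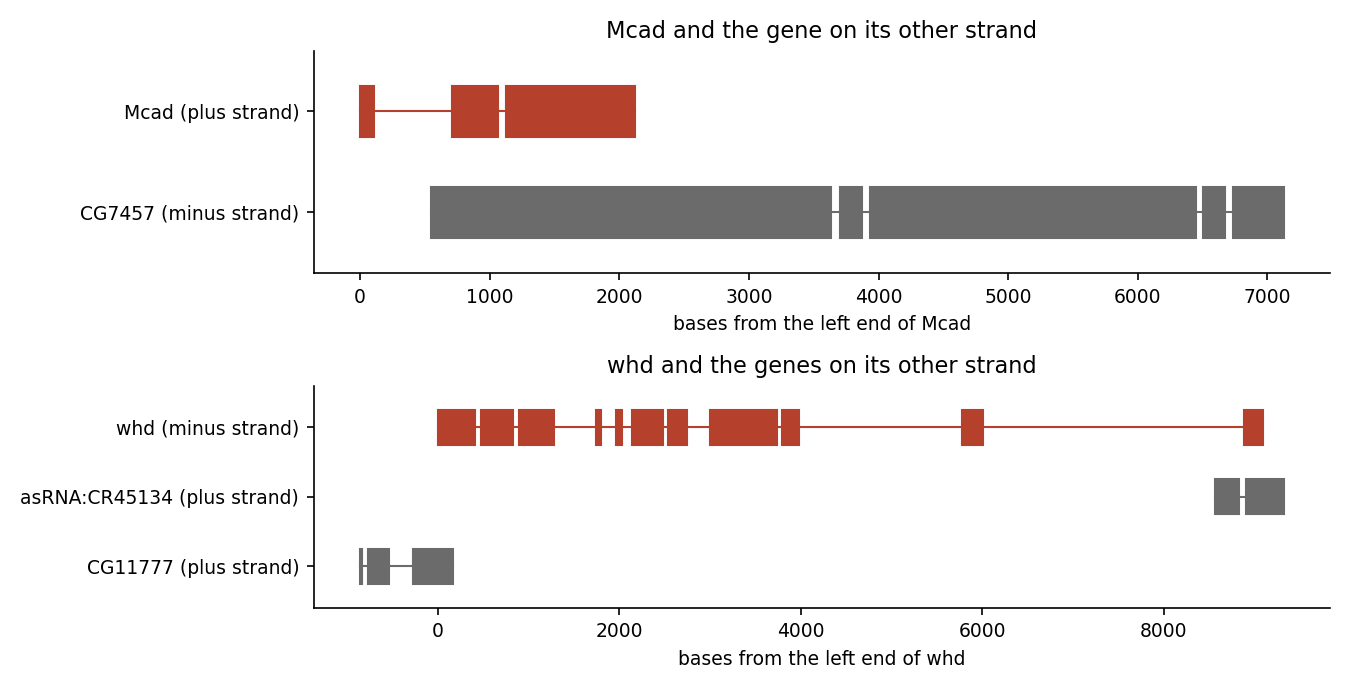
Exons (boxes) and introns (lines) of Mcad and of whd with the genes on their other strand, drawn to scale in bases from the left end of each member. Of the 1461 exon bases of Mcad 1353 lie opposite CG7457, while whd overlaps its partners only at its 2 ends, by 182 and 171 bases.

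The mean of CG7457 was 9602 ± 619.5 CPM in mutants and 11631 ± 1827 CPM in controls (SD, 4 libraries a group). The log2 fold change of -0.28 (SE 0.10, 95% interval -0.50 to -0.05) had an unadjusted p of 0.0183 and an adjusted p of 0.19 in edgeR's quasi-likelihood test, so it did not pass. Of all features tested, 15.4% had an unadjusted p under 0.05 and 9.54% had groups that did not overlap, as CG7457 and yip2 did. Without control replicate 1 the log2 fold change of CG7457 was -0.16 (adjusted p = 0.466, edgeR).

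Per kilobase, CG7457 was 65.6 times Mcad in mutants and 69.0 times Mcad in controls, and it held 288.4 times the reads of Mcad over all libraries. The Mcad share of the reads of the pair was 0.223, 0.234, 0.348 and 0.627% in mutants and 0.235, 0.438, 0.417 and 0.274% in controls. That share did not separate the groups (means 0.358 ± 0.188% in mutants and 0.341 ± 0.102% in controls, SD, 4 libraries a group; exact permutation test, two-sided p = 0.971). With the pair summed into 1 feature, the log2 fold change was -0.28 (SE 0.10, adjusted p = 0.19, edgeR), the value of CG7457 alone. The strand that the reads at this locus came from cannot be told apart from the labels, and the level of the Mcad transcript can be read from neither feature by itself.

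Hydration and the second dehydrogenation are represented by Echs1, the short-chain enoyl-CoA hydratase, and Mtpalpha, the subunit of the mitochondrial trifunctional protein that carries out both steps on long chains. The Echs1 feature (FBgn0033879, 2R, 13852947 to 13854331, minus strand) had 3, 1, 2 and 4 reads in mutants and 3, 4, 2 and 0 reads in controls, with 37 exon bases opposite CG30485. Its read ratio was 1.07 with an exact 95% interval of 0.392 to 2.99 (exact permutation test, two-sided p = 0.714). Both groups ran through the same few reads.

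Mtpalpha (FBgn0028479, 2L, 9573563 to 9576769, minus strand) had 3, 3, 2 and 0 reads in mutants and 3, 2, 0 and 0 reads in controls, with 10 exon bases opposite brwl. The read ratio was 1.55 with an exact 95% interval of 0.446 to 6.01 (exact permutation test, two-sided p = 0.743). For CPT2, Echs1 and Mtpalpha alike, a difference of the size seen for yip2 lay inside the interval, and none of the 3 had a permutation p under 0.05.

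yip2 closes the round. Its product is a predicted mitochondrial 3-ketoacyl-CoA thiolase, related to ACAA2 of mammals, which splits acetyl-CoA off the shortened chain. The feature (FBgn0040064, 2L, 9915253 to 9917220, plus strand, 1391 exon bases) has no exon base opposite another gene in the annotation used here. It had 11, 10, 11 and 13 reads in mutants and 19, 23, 24 and 23 reads in controls. Scaled for library size, yip2 stood at 27.4, 20.7, 23.8 and 29.7 CPM in mutants and at 49.4, 56.1, 43.0 and 62.3 CPM in controls. Every mutant library was below every control library, with a clear gap between the highest mutant (replicate 6) and the lowest control (replicate 5).

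The mean of yip2 was 25.4 ± 3.96 CPM in mutants and 52.7 ± 8.33 CPM in controls (SD, 4 libraries a group). The log2 fold change was -1.03 (SE 0.24, 95% interval -1.55 to -0.52), with a p of 0.000756 and an adjusted p of 0.0301 in edgeR's quasi-likelihood test. By p, yip2 ranked 65 among the 82 features called. Whether the reads of this feature are yip2 mRNA was not tested, in libraries where 97.8% to 98.1% of uniquely aligned reads fell in no gene and most assigned reads lay in features opposite another gene. In whole larvae, less RNA per cell and fewer cells of a type cannot be told apart either. Of the marker lists, only that of hemocytes (Hml, NimC1, Col4a1 and vkg) had summed levels that did not overlap between groups. They were 105.8 to 139.7 CPM in mutants and 180.5 to 218.2 CPM in controls. All 4 genes had a read, 2 had reads in every library, 2 were tested and 0 called. Among single features tested, 9.54% had groups that did not overlap. Which of the 4 genes carried the sum, and whether they mark hemocytes alone, was not tested. The number of hemocytes and the part of these markers in the yip2 result were not tested either.

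The direction of yip2 held in all settings tried, with log2 fold changes of -1.13 to -0.95 when each library was left out in turn, but its call did not. Of the mutant libraries farthest from their group, leaving out replicate 1 ended the call (adjusted p = 0.0553) and leaving out replicate 3 did not (log2 fold change -1.01, adjusted p = 0.0422, both in edgeR). The call was also lost without mutant replicate 2 (adjusted p = 0.102), control replicate 1 (0.0709), control replicate 2 (0.0897) or control replicate 6 (0.089), all in edgeR. It was kept without mutant replicate 6 (0.0462) and without control replicate 5 (0.0431). DESeq2 gave -1.04 with an adjusted p of 0.0858.

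**Figure D3:**
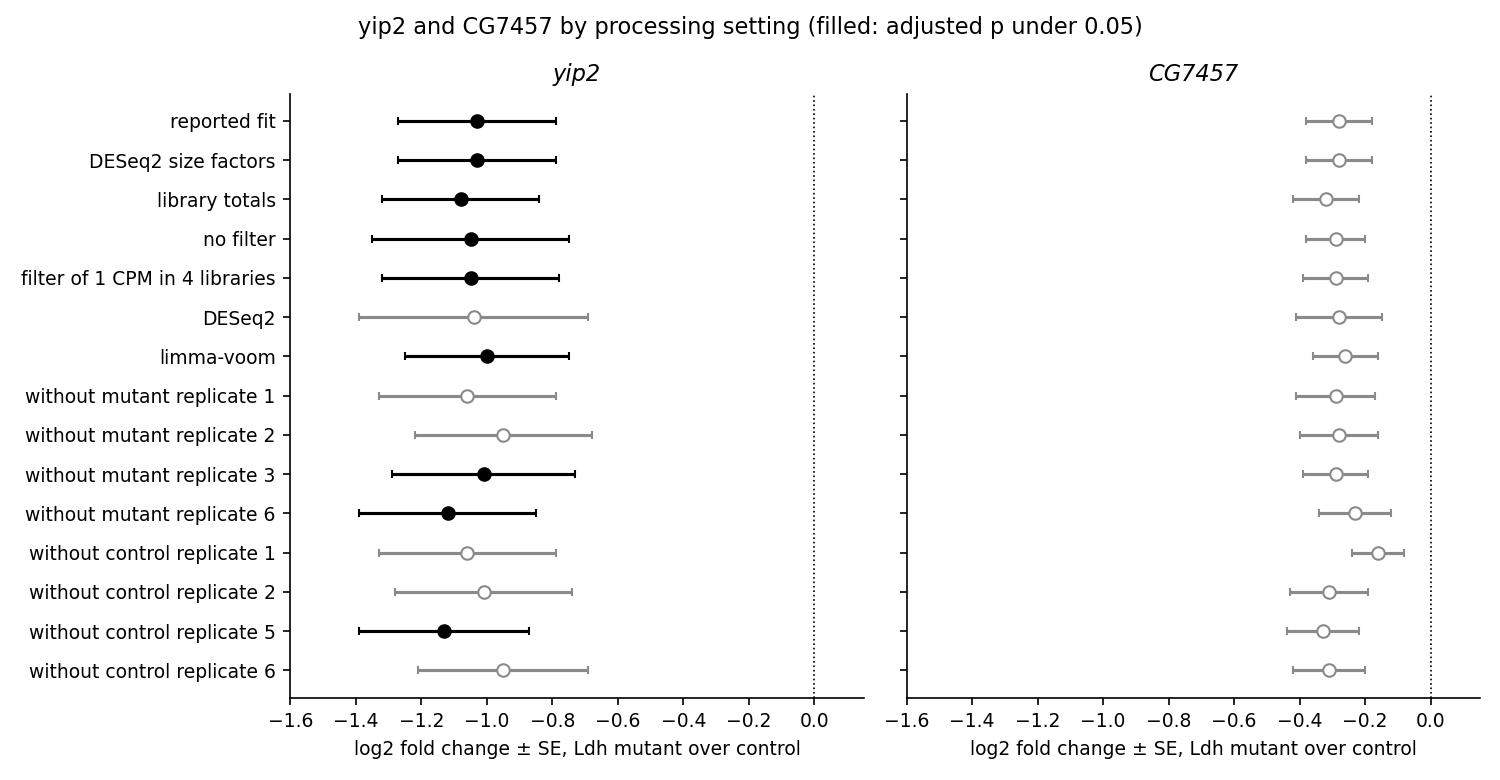
Log2 fold change ± SE, Ldh mutant over control, of yip2 (left) and CG7457 (right), with filled points where the adjusted p was under 0.05. Drawn are the reported fit, 6 other scalings, filters or tools, and the fits with each library left out. The replicate block, where CG7457 was called (-0.34, adjusted p = 0.0109, edgeR), and the same libraries without the block are not drawn. The points drawn for yip2 lie between -1.13 and -0.95 with some filled and some open, and those drawn for CG7457 are open, between -0.33 and -0.16.

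Ratios taken within a library do not depend on how libraries are scaled, and 4 were computed after the values had been seen. The reads of yip2 over those of whd were 0.196, 0.147, 0.224 and 0.22 in mutants and 0.373, 0.434, 0.375 and 0.535 in controls. Again the groups did not overlap, and the mean log2 ratio differed by -1.13 (exact permutation test, two-sided p = 0.0286, adjusted over the 4 ratios 0.0571). Against CG7457 the log2 difference was -0.78 with no overlap (exact permutation p = 0.0286, adjusted 0.0571). Against Mcad it was -0.77 with overlapping groups (exact permutation p = 0.0857, adjusted 0.0857), and against Mtpbeta, the thiolase subunit of the trifunctional protein, it was -1.0 with overlapping groups (exact permutation p = 0.0571, adjusted 0.0762). No ratio passed after adjustment.

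The genes beside yip2, looked up after its value was seen, were not called. CG5885, on the other strand, ends at the base next to the end of yip2. It had 10, 14, 11 and 8 reads in mutants and 11, 10, 19 and 12 reads in controls, with a log2 fold change of -0.32 (SE 0.27, 95% interval -0.89 to 0.25, adjusted p = 0.689, edgeR). Srp54, 208 bases upstream on the same strand, had 0 reads in all 8 libraries, and CG4598, a predicted enoyl-CoA isomerase gene 1397 bases downstream on the same strand, had 1 read in mutants and 3 in controls. The difference between yip2 and CG5885 was not tested.

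The tested features whose profile over the 8 libraries was nearest to that of yip2 were CG2818, ergic53 and VepD. Nearness was the Euclidean distance of centred log2(CPM + 1) values, 0.504 for CG2818, 0.56 for ergic53 and 0.623 for VepD, against a median of 1.73 over all features tested. CG2818 averaged 140.9 ± 22.5 CPM in mutants and 300.6 ± 32.5 CPM in controls, ergic53, a cargo receptor between the endoplasmic reticulum and the Golgi, 106.9 ± 23.5 CPM in mutants and 208.9 ± 26.5 CPM in controls, and VepD 74.7 ± 12.9 CPM in mutants and 125.6 ± 11.9 CPM in controls (SD, 4 libraries a group). All 3 were called lower in mutants, with log2 fold changes of -1.10 (CG2818), -0.96 (ergic53) and -0.75 (VepD) and adjusted p-values in edgeR of 0.000479, 0.00466 and 0.0169 in that order. Picking features near the profile of yip2 favours this direction, so these calls describe the selection and are no separate result. Exons of VepD lie opposite another gene over 135 of 759 bases.

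Over the 4 tested members the median log2 fold change was -0.25 (-1.03 to 0.08), with 3 of 4 below 0, against a median of 0.01 and 48.4% below 0 over all 2589 features. One of these 4, CG7457, shares a locus with Mcad, so they are not independent measurements. The 3 members under the filter enter none of these counts.

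Other genes of fatty acid metabolism were taken from 5 lists of 47 genes, of which 44 were found, 40 had a read and 8 were tested. None of the 8 was called in either direction by edgeR, none had an unadjusted p under 0.05, and none was called by DESeq2 or limma-voom. Their median log2 fold change was 0.06 (-0.22 to 0.51), with 3 of 8 below 0. In the carnitine shuttle, colt, the acylcarnitine carrier of the inner membrane, averaged 31.0 ± 5.30 CPM in mutants and 22.0 ± 9.77 CPM in controls, a log2 fold change of 0.51 (SE 0.32, 95% interval -0.16 to 1.19). CROT, related to carnitine octanoyltransferase of mammals, had a log2 fold change of 0.08 (SE 0.24), with 67 exon bases opposite another gene. Neither passed the test.

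Among the hydratases and thiolases, Mtpbeta is the partner subunit of Mtpalpha and catalyses the same cleavage as yip2. It averaged 25.8 ± 5.94 CPM in mutants and 26.3 ± 3.29 CPM in controls (SD, 4 libraries a group). The log2 fold change was -0.02 (SE 0.27, 95% interval -0.61 to 0.57, adjusted p = 0.991, edgeR). CG9577, a predicted member of the enoyl-CoA hydratase and isomerase family, had a log2 fold change of 0.11 (SE 0.17). Acox57D-d, a peroxisomal acyl-CoA oxidase, averaged 136.2 ± 23.2 CPM in mutants and 150.6 ± 21.8 CPM in controls (log2 fold change -0.15, SE 0.16). Lsd-1, a perilipin that coats lipid droplets, had a log2 fold change of 0.08 (SE 0.21), with 144 exon bases opposite another gene. ACC, the acetyl-CoA carboxylase whose product malonyl-CoA inhibits carnitine palmitoyltransferase I, had one of -0.22 (SE 0.28).

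**Figure D4:**
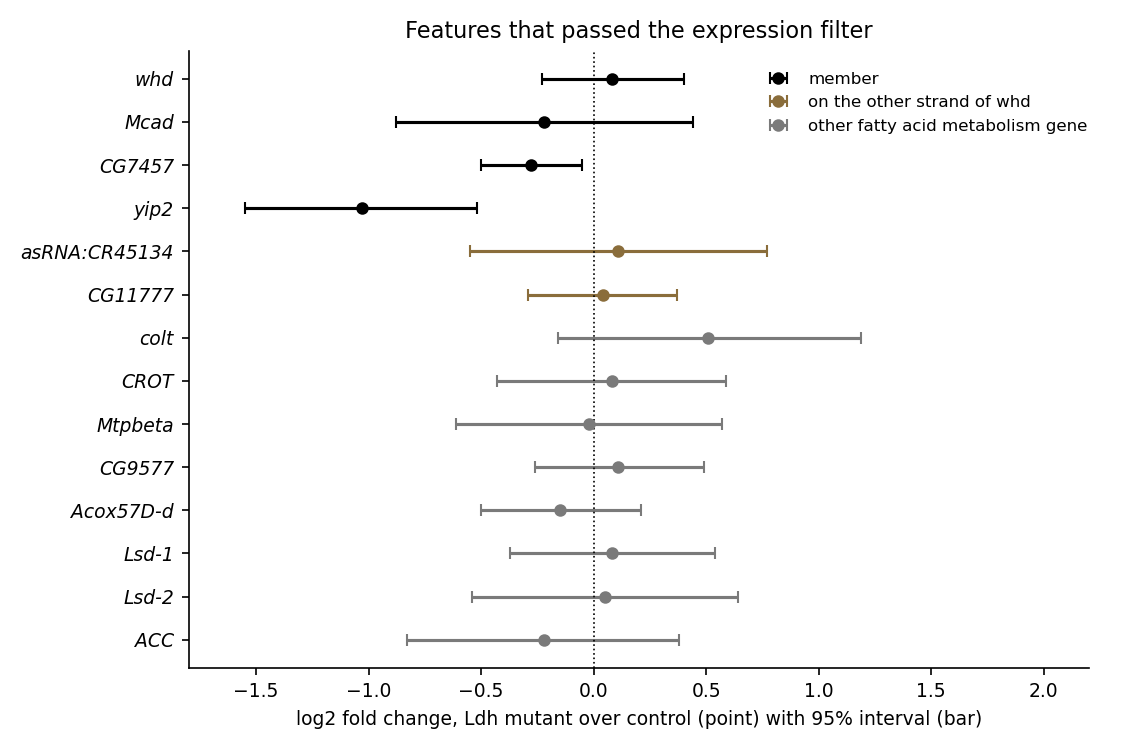
Log2 fold change, Ldh mutant over control, with its 95% interval for the 4 tested members, the 2 features opposite whd and the 8 tested genes of the fatty acid metabolism lists. The intervals of yip2 (-1.55 to -0.52) and CG7457 (-0.50 to -0.05) do not reach 0, and those of the other 12 features do.

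The remaining 36 list genes fell under the filter, with a median of 4 reads over 8 libraries, and all 7 acyl-CoA dehydrogenase and electron transfer genes found were among them. Of the 24 with at least 4 reads, 5 had groups that did not overlap in CPM, against 3.22% of the 5627 features under the filter with as many reads. These 5 are named after their values were seen. CPM was lower in every mutant library than in every control library for Acsl, a long-chain acyl-CoA synthetase (11 reads in mutants and 20 in controls), bgm, a very-long-chain acyl-CoA synthetase (2 and 5 reads), CRAT, a carnitine acetyltransferase, and Etfb, the beta subunit of the electron transfer flavoprotein (14 and 21 reads). CRAT, with 90 exon bases opposite another gene, had 2, 2, 3 and 3 reads in mutants and 3, 4, 12 and 3 reads in controls. Control replicate 5 thus held 12 of the 22 control reads. In unscaled reads the highest mutant library tied with the lowest control library, at 3 (Acsl), 1 (bgm), 3 (CRAT) and 4 (Etfb). The separation of these genes thus came only after scaling by library size.

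The opposite order was seen for scu, a mitochondrial hydroxyacyl-CoA dehydrogenase, with 4, 2, 2 and 3 reads in mutants and 1, 0, 0 and 1 reads in controls. The scaled read ratios, mutant over control, were 5.31 for scu, 0.439 for CRAT, 0.531 for Acsl, 0.386 for bgm and 0.644 for Etfb. These genes were picked for their separation, so the ratios are a description and no test was made of them.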

How the data were processed

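RNA-seq of 8 libraries was analysed, 4 of Ldh mutants and 4 of controls, grouped by genotype label. Read counts, as whole numbers for each FlyBase gene identifier, were used as deposited, without normalization by the authors. Tools named by the submitters' processing notes were HTSeq 0.6.1p1, TopHat2 2.0.13, Bowtie2 2.2.4, Trimmomatic 0.32, CASAVA and DESeq2. Build, annotation, kit and strand setting of these counts are not given in the sources used here. The methods of the paper give an Ensembl BDGP6 genome and transcript set for another route, quantification with Salmon, and describe other sample numbers and heterozygous controls, and the labels were followed. Of all counts in a file, summary lines included, between 1.24% and 1.62% were assigned to a gene (371700 to 560865 reads). The 5 summary lines per file, which name no gene, were left out of the tests. Of 17445 features, 17151 were placed in the BDGP6 annotation of Ensembl release 115, from which positions, exon lengths and opposite-strand genes (at least 50 exon bases of overlap) were taken, and which may not be the annotation used for counting.

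Counts were tested with edgeR 4.0.16 in R 4.3.3 (quasi-likelihood, default filter, TMM, no covariates), with Benjamini-Hochberg adjustment over 2589 features and calls at an adjusted p under 0.05. CPM used the reads in tested features times the TMM factor. Below the filter, read ratios have exact 95% intervals, and log2(CPM + 1) was compared by exact permutation (two-sided) over the 70 ordered splits. Alternatives were DESeq2 size factors, library totals, no filter, 1 CPM in 4 libraries, DESeq2 1.42.0, limma-voom (limma 3.58.1), a replicate block, each library left out, strands summed, and a pseudocount of 0.5. Within-library ratios, the neighbours of yip2 and the list genes with groups that do not overlap were added after seeing the data.

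Members and lists were chosen with earlier results of these data known. Named were the 7 members, features opposite a member, Ldh, in each list the 2 tested genes with most reads, any called list gene, and the 3 profiles nearest to a called member. Of the list genes, 3 did not match an identifier. No 2 libraries of a group agreed within counting noise (chi-square of 1.81 to 12.1 per degree of freedom), so none was taken for a repeat deposit of another. This does not show that they came from separate cultures. The scripts were tested on simulated data.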

Additional observations from a re-analysis of the deposited data

Results flagged for a closer look

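CPT2 was set apart by a single library in each group, where its gap to the next library was the whole range of the group (past the 95% critical value of Dixon's test for 4 samples). In mutants it was replicate 6, at 4.57 CPM (2 reads) with the other 3 libraries at 0, and in controls replicate 5, at 1.79 CPM (1 read) with the other 3 at 0. Of 18 sets of values examined for the members and the features opposite whd, these were the 2 that passed, beside a nominal rate by chance of about 1 in 20. With the other 3 libraries at 0, a single read makes the gap the whole range, so that rate does not hold for CPT2.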

How the results depend on the processing

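Direction held for whd, Mcad, CG7457 and yip2 under every setting run, and neither whd nor Mcad was called in any. The number of features called was 82, and 184 with no filter (113 higher, 71 lower), 138 with the replicate block (63 higher, 75 lower, 66 of them among the 82) and 57 to 164 with each library left out, the highest without mutant replicate 3 (78 of the 82 among them). Library totals gave 101, with 38 higher and 63 lower, and the remaining settings 75 to 118. The number of members called was 1, but 0 in DESeq2 and 0 to 1 with each library left out. With the replicate block over replicates 1, 2 and 6 it was again 1. There CG7457 (-0.34, adjusted p = 0.0109, edgeR) was called in place of yip2 (-1.11, adjusted p = 0.0532, edgeR). The same libraries without the block gave -1.11 and 0.047 for yip2 and -0.35 and 0.0701 for CG7457 (log2 fold change and adjusted p, edgeR). They gave 118 features called without the block. Whether replicate numbers pair the samples is not given by the labels, and 3 pairs are too few to settle it. Deviations of same-numbered libraries correlated at -0.11 to 0.02 over these pairs, and none correlated best with its own number. The log2 fold change of yip2 was -1.04 in DESeq2 and -1.13 to -0.95 with each library left out. Read ratios ranged over 1.04 to 3.0 for Mtpalpha, 0.843 to 1.47 for Echs1 and 0 to 2.65 for CPT2 (not defined without control replicate 5), and 0 of these 3 had a permutation p under 0.05 with a pseudocount of 0.5 or library totals. The cause of these shifts was not tested. Depth is one limit, as 6 of the 7 members rest on under 70 reads a library, and the unknown strand of the counting is another.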
